A study of Homo sapiens with 12 samples.

Results

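The interferon response genes described here are 51 genes of the antiviral programme that cells switch on when they meet interferon. They were chosen by symbol, with earlier results of these data known. Each was read from the array feature annotated to its symbol. Of the 51 genes, 50 were measured, each by 1 feature, out of 17687 named genes on the arrays. STAT2 was not analysed here.

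Type I and type III interferons bind cell surface receptors whose JAK kinases set off the assembly of the transcription factor ISGF3, which contains IRF9. ISGF3 binds the interferon-stimulated response element (ISRE) in the promoters of its target genes, while type II interferon acts mainly through the gamma-activated site (GAS). The products of the target genes sense viral RNA, block its translation, degrade it, stop viral entry or couple the ubiquitin-like protein ISG15 to other proteins, and epithelial cells transcribe part of the set with no interferon added. BRG1, the product of SMARCA4, is a motor subunit of the SWI/SNF complexes that reposition nucleosomes, and it has been described in human cell lines as a cofactor of interferon-induced transcription.

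Total RNA was measured on 12 single-colour Affymetrix arrays, with 3 arrays in each of 4 groups: HCT 116 cells given siRNA against BRG1 (HCT 116 siBRG1), HCT 116 cells given control siRNA (HCT 116 siControl), DLD1 cells given siRNA against BRG1 (DLD1 siBRG1) and DLD1 cells given control siRNA (DLD1 siControl). HCT 116 and DLD1 are established human colorectal cancer cell lines. All 4 groups received an siRNA, and the labels name no interferon, virus or other agent, so the values are levels in cells with no stated stimulation. Neither the sequence of an siRNA nor the time between transfection and harvest was available for this work. Arrays were grouped by their titles; for 4 of the HCT 116 arrays the name of the source has different digits from the title. The labels are silent on whether a group's arrays stand for separate cultures, and every p-value below measures the spread between arrays, which may be technical.

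All values are log2 levels, and a change is the log2 difference of 2 group means, siBRG1 minus siControl. The medians of the 12 arrays over the named genes lay between 6.71 and 6.92. The table holds no detection calls, so a level below the array median cannot be told from background here. SMARCA4, the target of the siRNA, was at 6.78, 6.39 and 7.03 in HCT 116 siBRG1 arrays, against 10.12, 10.15 and 9.59 in HCT 116 siControl arrays. It was at 6.29, 6.55 and 6.31 in DLD1 siBRG1 arrays, against 10.31, 9.95 and 10.29 in DLD1 siControl arrays. The groups did not overlap in either line, with changes of −3.22 in HCT 116 and −3.80 in DLD1. By exact two-sided permutation of the array labels, p was 0.1 within a line, the lowest value possible with 3 against 3 arrays, and 0.005 over both lines. Of 9 measured colon epithelial markers, 6 lay above the array median in all 12 arrays (EPCAM, KRT8, KRT18, KRT19, CDH1 and CDX2), while VIL1, CDX1 and LGALS4 lay below it in all.

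The promoters of these genes were searched for the ISRE and GAS cores. The genes were chosen as interferon response genes, so a high share of matches follows from that choice and is no independent result. RefSeq promoter windows of 300 bases (build GRCh38.p14, 250 before to 50 after the annotated start) were found for 41 of the 50 genes; none was matched for GBP2, IFIT2, IFITM2, IRF7, MX2, OAS2, OASL, TRIM22 and USP18. The ISRE core was searched on both strands as GAAA, any 2 bases, GAAA. It was found for 30 of the 41 genes (73.2%), against 1195 of 27305 genes in the table (4.38%). The GAS core, TTC, any 3 bases, GAA, was found for 12 of the 41 (29.3%), against 9.38% of all genes in the table. A match is a run of letters and not a measured binding site. The windows below belong to the genes with the lowest p among those that passed after BRG1 siRNA in HCT 116 or on the average of both lines, 4 with an ISRE match (in capitals) and 2 with none, and all are written 5′ to 3′ on the strand of the gene.
LGALS3BP promoter, chr17:78979874-78980173, minus strand: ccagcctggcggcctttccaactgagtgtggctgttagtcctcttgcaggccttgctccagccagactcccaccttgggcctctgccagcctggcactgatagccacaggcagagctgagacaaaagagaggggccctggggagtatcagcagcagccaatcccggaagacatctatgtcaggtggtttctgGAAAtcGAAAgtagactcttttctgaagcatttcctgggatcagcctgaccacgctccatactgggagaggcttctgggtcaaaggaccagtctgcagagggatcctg
OAS3 promoter, chr12:112938224-112938523, plus strand: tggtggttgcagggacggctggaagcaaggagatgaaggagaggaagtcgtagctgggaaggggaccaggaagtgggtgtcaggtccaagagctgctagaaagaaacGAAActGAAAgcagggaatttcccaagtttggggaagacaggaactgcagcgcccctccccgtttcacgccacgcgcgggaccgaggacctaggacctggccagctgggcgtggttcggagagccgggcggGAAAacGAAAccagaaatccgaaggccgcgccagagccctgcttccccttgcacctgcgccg
DTX3L promoter, chr3:122564088-122564387, plus strand: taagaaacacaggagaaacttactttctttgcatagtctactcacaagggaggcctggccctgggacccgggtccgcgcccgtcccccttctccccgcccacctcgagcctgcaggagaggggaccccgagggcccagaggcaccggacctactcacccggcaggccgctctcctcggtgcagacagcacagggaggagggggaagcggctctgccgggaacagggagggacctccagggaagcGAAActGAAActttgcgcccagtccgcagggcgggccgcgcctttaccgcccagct
PLSCR1 promoter, chr3:146544558-146544857, minus strand: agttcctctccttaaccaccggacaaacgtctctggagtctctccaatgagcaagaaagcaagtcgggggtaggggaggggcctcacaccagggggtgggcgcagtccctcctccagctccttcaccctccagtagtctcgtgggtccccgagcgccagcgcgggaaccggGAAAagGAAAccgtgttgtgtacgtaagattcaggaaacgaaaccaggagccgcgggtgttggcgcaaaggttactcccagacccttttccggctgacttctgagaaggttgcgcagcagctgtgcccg
UBE2L6 promoter, chr11:57567886-57568185, minus strand: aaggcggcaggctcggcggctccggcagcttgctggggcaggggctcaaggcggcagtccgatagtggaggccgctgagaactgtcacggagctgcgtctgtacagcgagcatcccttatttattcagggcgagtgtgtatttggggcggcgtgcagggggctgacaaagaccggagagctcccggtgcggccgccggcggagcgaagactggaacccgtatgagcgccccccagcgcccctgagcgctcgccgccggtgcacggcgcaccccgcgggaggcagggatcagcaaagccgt
RIGI promoter, chr9:32526147-32526446, minus strand: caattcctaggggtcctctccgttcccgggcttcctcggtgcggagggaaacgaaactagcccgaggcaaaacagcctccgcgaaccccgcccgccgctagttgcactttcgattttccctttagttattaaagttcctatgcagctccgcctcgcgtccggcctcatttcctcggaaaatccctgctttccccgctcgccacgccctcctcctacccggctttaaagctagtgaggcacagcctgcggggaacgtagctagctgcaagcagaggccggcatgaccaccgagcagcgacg

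Relative to the annotated start, the LGALS3BP match begins at −58 and the OAS3 matches at −143 and −12. The DTX3L match, at chr3:122564332-122564341, begins at −6 of DTX3L, and the same bases begin at −41 of PARP9, the neighbouring gene that is read the opposite way. For UBE2L6 and RIGI the search found no match in these windows, which says only that these letters are not there. Of the 50 genes, 26 lie in 12 runs of neighbouring members with no other protein-coding gene between them, among them OAS1, OAS3 and OAS2 on chromosome 12, IFITM2, IFITM1 and IFITM3 on chromosome 11, and PARP9 and DTX3L on chromosome 3.

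**Figure D1:**
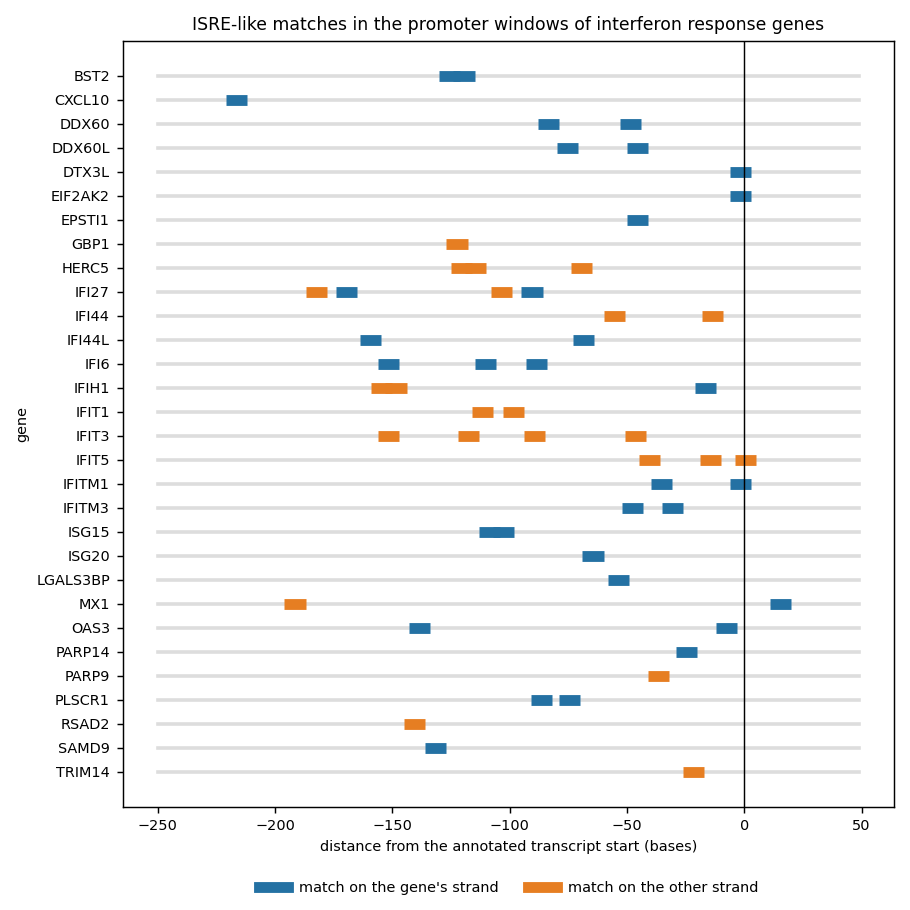
ISRE matches (GAAA, any 2 bases, GAAA) in the promoter windows of the 30 genes that hold one; the horizontal axis is the distance in bases from the annotated transcript start, grey lines are the windows, and blue and orange blocks are matches on the strand of the gene and on the other strand. A gene with several annotated starts has its windows laid over each other, so a match can appear at more than 1 distance, as it does for PLSCR1.

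The 50 genes spanned a wide range of levels in these lines. Of them, 22 lay above the array median in all 12 arrays, 20 lay below it in all 12, and 8 were on either side of it. The 22 included the viral entry inhibitors IFITM1, IFITM2 and IFITM3, the kinase PKR (EIF2AK2), LGALS3BP, and the PARP9, DTX3L and PARP14 group. The 20 included the chemokine CXCL10, the antiviral enzymes RSAD2 and OAS2, the GTPases MX2, GBP1 and GBP2, IFIT2, IFIT3, IFI27, IFI44 and IFI44L. CXCL10, for example, lay between 2.81 and 3.61 over all 12 arrays. IFITM3 lay between 15.24 and 16.09.

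After BRG1 siRNA in HCT 116, 4 of the 50 genes fell and 0 rose (limma, adjusted p under 0.05 over all 17687 genes). Of all genes tested, 4.13% fell and 2.82% rose in this line. The 4 were LGALS3BP, a secreted glycoprotein that binds galectin-3, OAS3, a synthetase of the 2′-5′ oligoadenylates that activate RNase L, UBE2L6, the E2 enzyme that carries ISG15, and PLSCR1, a phospholipid scramblase with antiviral activity. The median change of the 50 genes was −0.03, beside −0.01 over all genes. An unadjusted p under 0.05 was reached by 11 of the 50, 4 higher and 7 lower, and by 20.4% of all genes. The siBRG1 arrays all lay above the siControl arrays for 4 genes and all below for 8, beside 11.9% and 13% of all genes.

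LGALS3BP had the largest change of the 50 in HCT 116. Its level was 12.64, 11.92 and 12.04 in HCT 116 siBRG1 arrays, against 13.61, 13.65 and 13.69 in HCT 116 siControl arrays. The 3 control arrays lay within 0.1 of each other on the log2 scale, and every siBRG1 array was below them. The fall was 1.45 on the log2 scale, or 2.73-fold (SE 0.20, limma adjusted p = 0.000834). LGALS3BP was at 12.97, 13.04 and 12.71 in DLD1 siBRG1 arrays, against 13.18, 13.40 and 13.05 in DLD1 siControl arrays. The DLD1 groups were close but did not overlap, with a change of −0.30 (SE 0.20, limma adjusted p = 0.686).

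OAS3 was at 8.88, 8.85 and 8.44 in HCT 116 siBRG1 arrays, against 10.11, 9.75 and 9.51 in HCT 116 siControl arrays. All 3 siBRG1 arrays lay below the lowest control array, a change of −1.06 (2.09-fold lower, SE 0.21, limma adjusted p = 0.00676). In DLD1, OAS3 was at 11.36, 10.94 and 10.84 in siBRG1 arrays, against 11.38, 11.47 and 11.29 in siControl arrays. One DLD1 siBRG1 array, replicate 1, lay among the controls, and the change of −0.33 did not pass the test (SE 0.21, limma adjusted p = 0.65).

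UBE2L6 was at 9.24, 9.52 and 9.08 in HCT 116 siBRG1 arrays, against 9.73, 10.22 and 10.31 in HCT 116 siControl arrays. The groups did not overlap, and UBE2L6 fell by 0.81 on the log2 scale (SE 0.20, limma adjusted p = 0.0232). Its values in DLD1 were 8.16, 8.35 and 8.01 in siBRG1 arrays and 8.28, 8.31 and 8.09 in siControl arrays, which overlapped (change −0.05, SE 0.20). The HCT 116 call for UBE2L6 did not pass without siBRG1 replicate 1 (limma adjusted p = 0.057), siBRG1 replicate 3 (adjusted p = 0.104), siControl replicate 2 (adjusted p = 0.0966) or siControl replicate 3 (adjusted p = 0.101).

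PLSCR1 was at 9.0, 8.87 and 8.77 in HCT 116 siBRG1 arrays, against 9.62, 9.38 and 9.39 in HCT 116 siControl arrays. The groups did not overlap, and PLSCR1 fell by 0.59 on the log2 scale (SE 0.16, limma adjusted p = 0.0394). It was at 10.67, 10.81 and 10.68 in DLD1 siBRG1 arrays, against 10.97, 10.80 and 10.87 in DLD1 siControl arrays, where siBRG1 replicate 2 was level with the lowest control. The HCT 116 call for PLSCR1 passed in 4 of 12 fits that each left out an array, those without DLD1 siControl replicate 1, DLD1 siBRG1 replicate 1 or 3, or HCT 116 siBRG1 replicate 1. It missed in the other 8, with limma adjusted p from 0.0502 to 0.14, and it missed after centring each array on its median (change −0.51, adjusted p = 0.0883).

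IRF9, the DNA-binding subunit of ISGF3, and DTX3L, a ubiquitin ligase that works with PARP9, were also among the 5 largest changes in HCT 116 and did not pass the test there, though some alternatives passed them. IRF9 was at 7.75, 7.53 and 8.36 in HCT 116 siBRG1 arrays, against 7.56, 6.45 and 6.80 in HCT 116 siControl arrays. The groups overlapped through control replicate 1, and the change was 0.94 (SE 0.39, limma adjusted p = 0.183). IRF9 passed with the replicate number as a block (limma adjusted p = 0.0287) and with array weights (adjusted p = 0.0384), over a range of 0.0287 to 0.461 in 21 alternative fits. DTX3L was at 7.88, 7.53 and 7.33 in HCT 116 siBRG1 arrays, against 8.18, 8.59 and 8.07 in HCT 116 siControl arrays. The groups did not overlap, with a change of −0.70 (SE 0.20, limma adjusted p = 0.0512). DTX3L passed in 5 of its 21 alternative fits, with the block, with array weights, with either filter on level and without HCT 116 siBRG1 replicate 1, and its limma adjusted p ranged from 0.0124 to 0.208. PARP9, which shares its promoter interval with DTX3L, was at 7.48, 7.88 and 7.73 in HCT 116 siBRG1 arrays, against 8.11, 8.37 and 8.32 in HCT 116 siControl arrays. These groups did not overlap either (change −0.57, SE 0.18, limma adjusted p = 0.0743).

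**Figure D2:**
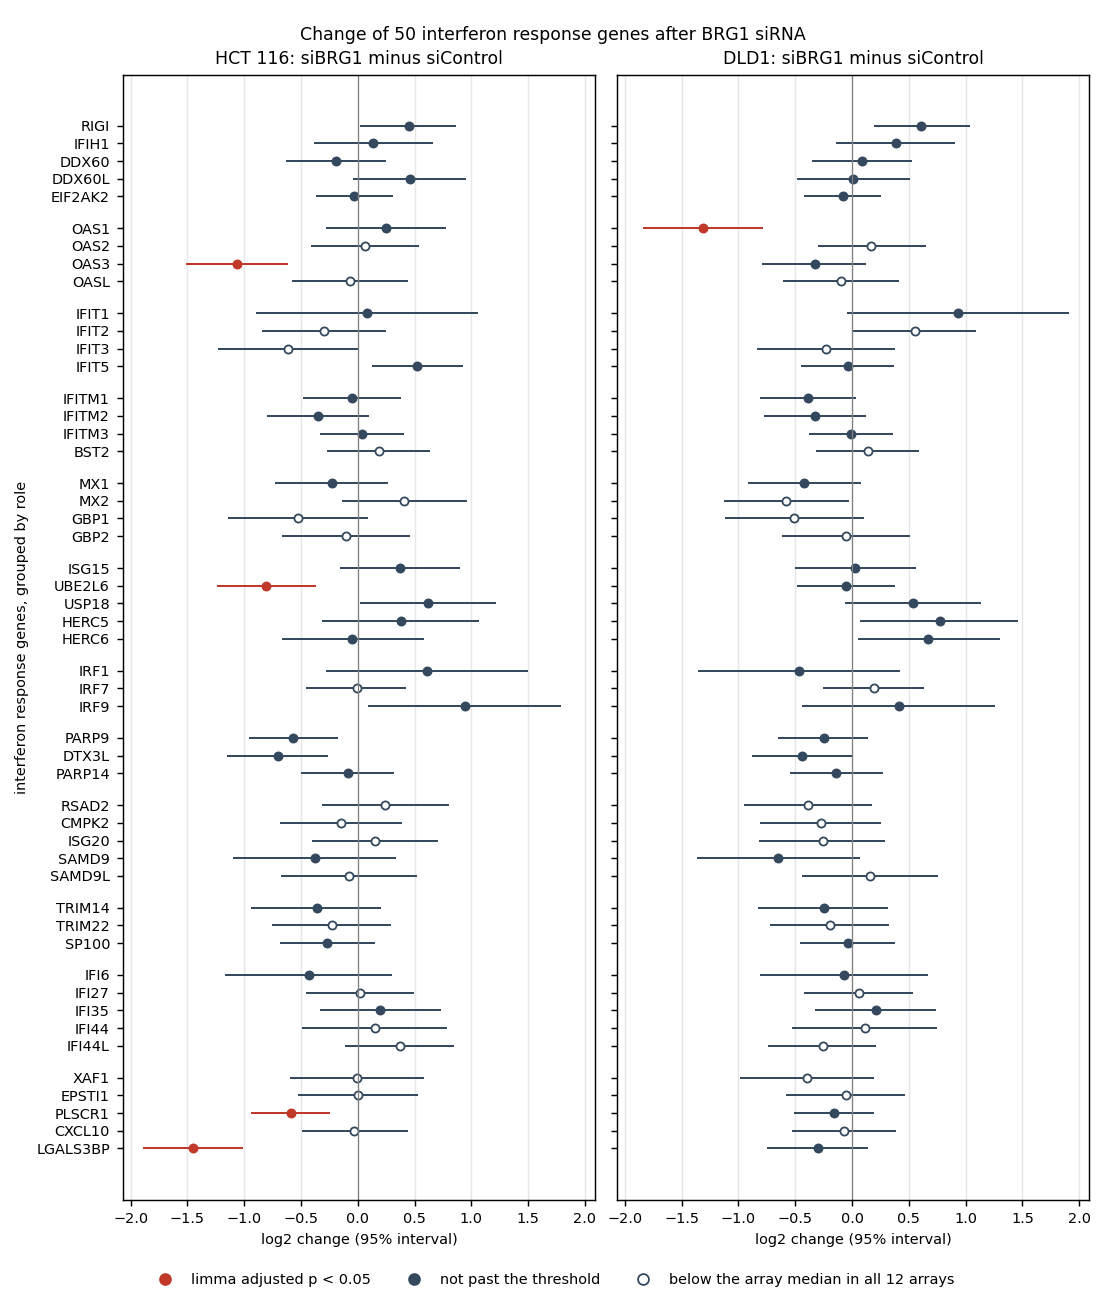
Change of each of the 50 genes after BRG1 siRNA in HCT 116 (left) and DLD1 (right); the horizontal axis is siBRG1 minus siControl on the log2 scale with 95% intervals from limma, and genes run down the page by role. Red points passed adjusted p under 0.05 (4 in HCT 116, 1 in DLD1, all below 0), and open points are genes below the array median in all 12 arrays.

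After BRG1 siRNA in DLD1, 1 of the 50 genes fell, OAS1, and 0 rose. Of all genes tested, 0.13% fell and 0.0678% rose in this line, so few genes of any kind passed. The median change of the 50 was −0.07, beside 0.01 over all genes. An unadjusted p under 0.05 was reached by 7 of the 50, 4 higher and 3 lower, and by 10.5% of all genes. The siBRG1 arrays all lay above the siControl arrays for 4 genes and all below for 4, beside 8.33% and 7.19% of all genes.

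OAS1, like OAS3 a 2′-5′ oligoadenylate synthetase, was at 9.21, 8.40 and 8.59 in DLD1 siBRG1 arrays, against 10.13, 9.95 and 10.05 in DLD1 siControl arrays. The controls lay close together and all 3 siBRG1 arrays were below them, with replicate 1 the nearest. OAS1 fell by 1.31 on the log2 scale, or 2.48-fold (SE 0.24, limma adjusted p = 0.0443). In 12 fits that each left out an array the change stayed between −1.55 and −1.14, but only the fit without DLD1 siBRG1 replicate 1 kept the call (adjusted p = 0.0142). The other 11 gave limma adjusted p from 0.0502 to 0.294, and in 6 of these the array left out was an HCT 116 one and the change was −1.31 as before. With DLD1 fitted alone limma gave an adjusted p of 0.142. OAS1 was at 4.01, 4.07 and 4.62 in HCT 116 siBRG1 arrays and at 3.92, 4.35 and 3.69 in HCT 116 siControl arrays. All of these lay below the array median, and whether a fall could show at such levels is not known.

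The next largest changes in DLD1 did not pass the test. IFIT1, which binds viral RNA whose cap lacks ribose methylation, was at 7.58, 7.23 and 6.23 in DLD1 siBRG1 arrays, against 6.46, 6.56 and 5.24 in DLD1 siControl arrays. These groups overlapped, and replicate 3 was the lowest array of both (change 0.93, SE 0.45, limma adjusted p = 0.504). HERC5, the main ligase of ISG15 in human cells, was at 9.94, 9.49 and 10.20 in DLD1 siBRG1 arrays, against 9.14, 9.02 and 9.17 in DLD1 siControl arrays. HERC6, its neighbour and relative, was at 11.03, 10.53 and 11.58 in DLD1 siBRG1 arrays, against 10.44, 10.27 and 10.42 in DLD1 siControl arrays. Neither gene had overlapping groups, and neither passed (HERC5 change 0.77, SE 0.32, limma adjusted p = 0.398; HERC6 change 0.67, SE 0.29, adjusted p = 0.414). SAMD9, a growth-restraining antiviral protein, was at 9.45, 10.14 and 8.74 in DLD1 siBRG1 arrays, against 9.64, 10.70 and 9.93 in DLD1 siControl arrays, which overlapped (change −0.65, SE 0.33, limma adjusted p = 0.542).

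When the changes of both lines were averaged, 1 gene rose and 3 fell, beside 4.01% and 4.68% of all genes. The gene that rose was RIGI, a cytoplasmic sensor of viral RNA. RIGI was at 8.89, 8.63 and 8.51 in HCT 116 siBRG1 arrays, against 8.31, 8.04 and 8.34 in HCT 116 siControl arrays. It was at 9.04, 9.57 and 9.50 in DLD1 siBRG1 arrays, against 8.69, 8.96 and 8.62 in DLD1 siControl arrays. In neither line did the groups overlap, and the average change was 0.53 (1.44-fold, SE 0.14, limma adjusted p = 0.0283). The RIGI call was lost in 7 of 12 fits that each left out an array (limma adjusted p from 0.0545 to 0.079), those without HCT 116 siBRG1 replicate 1 or 2, HCT 116 siControl replicate 2, DLD1 siBRG1 replicate 2 or 3, or DLD1 siControl replicate 1 or 3.

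The genes that fell on average were LGALS3BP (change −0.88, SE 0.14, limma adjusted p = 0.00223), OAS3 (−0.70, SE 0.15, adjusted p = 0.0097) and DTX3L (−0.57, SE 0.14, adjusted p = 0.0244). DTX3L was at 10.13, 10.12 and 10.45 in DLD1 siBRG1 arrays, against 10.67, 10.51 and 10.83 in DLD1 siControl arrays. Its groups did not overlap in either line, and its average call was lost in 5 of 12 fits that each left out an array (limma adjusted p from 0.0543 to 0.0673), those without HCT 116 siBRG1 replicate 2 or 3, HCT 116 siControl replicate 2, DLD1 siBRG1 replicate 2 or DLD1 siControl replicate 3. With the replicate number as a block within each line, 3 of the 50 rose and 7 fell on average, beside 6.94% and 7.06% of all genes. Those that joined were USP18 (0.58, adjusted p = 0.0104), IRF9 (0.68, adjusted p = 0.0242), GBP1 (−0.52, adjusted p = 0.0338), UBE2L6 (−0.43, adjusted p = 0.0437), PARP9 (−0.41, adjusted p = 0.0244) and PLSCR1 (−0.37, adjusted p = 0.0388) by limma.

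The difference between the lines in their response (HCT 116 change minus DLD1 change) passed for 0 of the 50 genes by limma, beside 0.334% of all genes, and 7 of the 50 had an unadjusted p under 0.05, beside 8.99% of all genes. The largest differences were those of OAS1 (1.56, SE 0.34, limma adjusted p = 0.082) and LGALS3BP (−1.14, SE 0.29, adjusted p = 0.132). The lines shared the direction of change for 37 of the 50 genes (74%), beside 60.9% of all genes. They shared it for 19 of the 22 members that lay above the array median in every array. The share among all genes at such levels was not counted, so the 19 cannot be set beside the 60.9%.

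**Figure D3:**
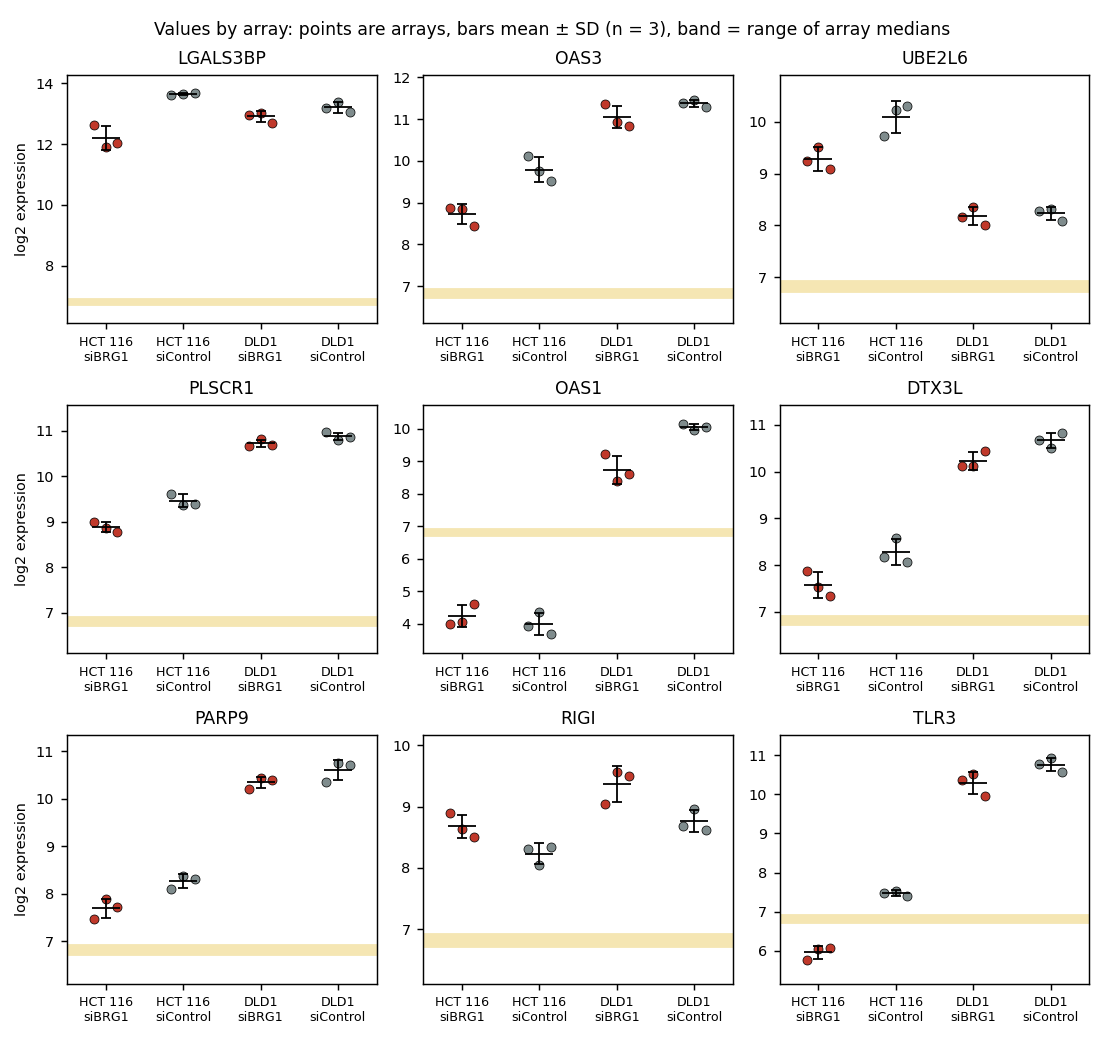
Levels of 8 interferon response genes and of TLR3 in each array; the vertical axis is the log2 level, each point is an array, bars are the mean ± SD of 3 arrays, and the pale band is the range of the array medians, 6.71 to 6.92. Vertical scales differ between panels. LGALS3BP, OAS3, UBE2L6 and PLSCR1 fell in HCT 116 and OAS1 fell in DLD1, while OAS1 lay below the band in every HCT 116 array.

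Taken by role, the changes ran both ways in most groups. The RNA sensors and PKR (RIGI, IFIH1, DDX60, DDX60L and EIF2AK2) had changes of −0.19 to 0.46 in HCT 116 and −0.08 to 0.61 in DLD1, and 0 of 5 passed in either line. The oligoadenylate synthetases split: OAS3 fell in HCT 116, OAS1 fell in DLD1, and OAS2 and OASL, both below the array median in all 12 arrays, had changes of −0.10 to 0.17 over both lines. The IFIT proteins, which bind viral RNA, had changes of −0.61 (IFIT3) to 0.52 (IFIT5) in HCT 116 and −0.23 (IFIT3) to 0.93 (IFIT1) in DLD1, with 0 of 4 passing.

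Among the membrane restriction factors, IFITM1, IFITM2, IFITM3 and the tethering protein BST2 had changes of −0.35 to 0.19 in HCT 116 and −0.39 to 0.14 in DLD1, with 0 of 4 passing. IFITM3 had narrow intervals, −0.32 to 0.40 in HCT 116 and −0.37 to 0.35 in DLD1. The GTPases MX1, MX2, GBP1 and GBP2 were all below 0 in DLD1, from −0.58 to −0.05, and ran from −0.53 to 0.41 in HCT 116, with 0 of 4 passing.

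In the ISG15 system the E2 enzyme UBE2L6 fell in HCT 116 while ISG15 itself (change 0.37 in HCT 116 and 0.03 in DLD1), its protease USP18 (0.62 and 0.54), and HERC5 (0.38 and 0.77) did not pass in either line. USP18 was at 7.67, 8.39 and 8.12 in HCT 116 siBRG1 arrays, against 6.90, 7.60 and 7.84 in HCT 116 siControl arrays. It was at 10.07, 9.54 and 9.92 in DLD1 siBRG1 arrays, against 9.62, 8.86 and 9.41 in DLD1 siControl arrays. In both lines the groups of USP18 overlapped, and in both each siBRG1 array lay above the siControl array of its number. The labels do not say whether the numbers pair the arrays.

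The interferon transcription factors IRF1, IRF7 and IRF9 had changes of −0.01 to 0.94 in HCT 116 and −0.47 to 0.41 in DLD1, with 0 of 3 passing. PARP9 and DTX3L, which form a complex, and PARP14 were below 0 in both lines, from −0.70 to −0.09 in HCT 116 and −0.44 to −0.14 in DLD1, with 0 of 3 passing in a single line. RSAD2, CMPK2, ISG20, SAMD9 and SAMD9L, which act on nucleotides, RNA or translation, had changes of −0.38 to 0.24 in HCT 116 and −0.65 to 0.16 in DLD1, with 0 of 5 passing.

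TRIM14, TRIM22 and the nuclear body protein SP100 were below 0 in both lines (−0.36 to −0.23 in HCT 116, −0.25 to −0.04 in DLD1), with 0 of 3 passing. IFI6, IFI27, IFI35, IFI44 and IFI44L had changes of −0.43 to 0.37 in HCT 116 and −0.26 to 0.21 in DLD1, with 0 of 5 passing. Of XAF1, EPSTI1, PLSCR1, CXCL10 and LGALS3BP, the remaining genes, PLSCR1 and LGALS3BP fell in HCT 116, and 0 of 5 passed in DLD1. Over the 50 genes the 95% interval of the change lay within 2-fold in either direction for 37 in HCT 116 and 38 in DLD1, with standard errors from 0.15 to 0.45 (median 0.24).

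The counts were also set against the promoter letters. Of the 30 genes with an ISRE match, 3 fell in HCT 116 (LGALS3BP, OAS3 and PLSCR1) and 0 in DLD1. Of the 11 whose windows held none, 1 fell in HCT 116 (UBE2L6) and 1 in DLD1 (OAS1). Over all genes, 4.13% fell in HCT 116 and 0.13% in DLD1. The search required a gap of exactly 2 bases, so an element with another gap would be missed. The median change in HCT 116 was −0.03 for the 30 and −0.01 for the 11, and in DLD1 it was −0.11 and −0.04. These are descriptions of the searched windows and no test was made of them.

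More of the 50 genes differed between the lines than passed after BRG1 siRNA in either line. In the siControl arrays, 6 of the 50 genes were higher and 18 were lower in HCT 116 than in DLD1 by limma, beside 13.6% and 14% of all genes. The median difference of the 50 was −0.33, beside 0.03 over all genes. Of the 9 colon epithelial markers, 6 were lower and 0 higher in HCT 116 siControl arrays by limma (median difference −0.84), CDH1 (−4.08) and CDX2 (−3.59) most of all, and their part in the results was not tested. All HCT 116 siControl arrays lay above all DLD1 siControl arrays for 9 genes and below them for 23, beside 20.3% and 19.7% of all genes. In the siBRG1 arrays, 7 were higher and 22 lower in HCT 116, beside 14% and 16.8% of all genes. Of these, 22 had passed the same way in the siControl arrays, 6 higher and 16 lower. RIGI, OASL, IFIT2, IFIT3, GBP2, IRF7 and LGALS3BP passed in the siBRG1 arrays and not in the siControl arrays, and MX2 and RSAD2 the other way round; a test of that shift is the difference between responses given above, which passed for none of the 50. LGALS3BP was lower in HCT 116 among siBRG1 arrays (difference −0.71, SE 0.20, limma adjusted p = 0.0143), while its difference of 0.44 among siControl arrays did not pass (SE 0.20, adjusted p = 0.133).

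The largest difference between the lines was that of OAS1, at 3.92, 4.35 and 3.69 in HCT 116 siControl arrays, against 10.13, 9.95 and 10.05 in DLD1 siControl arrays. The difference was −6.06 (SE 0.24, limma adjusted p = 4.76e-11), and since the HCT 116 level could not be told from background, its true size is not known. Its neighbour OAS3 was well above the array median in both lines, at 9.79 ± 0.30 in HCT 116 siControl arrays and 11.38 ± 0.09 in DLD1 siControl arrays (SD, n = 3 each). OAS2, the third gene of that run, was below the median in both.

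The PARP group was lower in HCT 116 throughout. PARP14, an interferon-induced mono-ADP-ribosyltransferase, was at 9.78, 9.30 and 9.46 in HCT 116 siControl arrays, against 12.14, 12.48 and 12.34 in DLD1 siControl arrays. The ranges lay over 2 log2 units apart (difference −2.81, SE 0.19, limma adjusted p = 1.8e-08). DTX3L averaged 8.28 ± 0.27 in HCT 116 siControl arrays and 10.67 ± 0.16 in DLD1 siControl arrays (SD, n = 3 each; difference −2.39, limma adjusted p = 2.72e-07). PARP9 averaged 8.27 ± 0.14 in HCT 116 siControl arrays and 10.60 ± 0.21 in DLD1 siControl arrays (SD, n = 3 each; difference −2.33, limma adjusted p = 9.55e-08).

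IFIH1 (MDA5), a sensor of long double-stranded RNA, was at 7.62, 7.67 and 8.06 in HCT 116 siControl arrays, against 9.76, 9.91 and 9.82 in DLD1 siControl arrays. USP18 was at 6.90, 7.60 and 7.84 in HCT 116 siControl arrays, against 9.62, 8.86 and 9.41 in DLD1 siControl arrays. Neither gene overlapped between the lines (IFIH1 difference −2.05, SE 0.24, limma adjusted p = 9.39e-06; USP18 difference −1.85, SE 0.28, adjusted p = 0.000101). Also lower in HCT 116 siControl arrays were RSAD2, IFI6, EIF2AK2, OAS3, IFITM1, IFITM2, IFITM3, MX1, MX2, HERC5, HERC6 and PLSCR1, by 0.59 to 1.74 on the log2 scale. RSAD2 and MX2 lay below the array median in all 12 arrays, and MX1 did in every HCT 116 array. Those levels cannot be told from background.

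The other 6 genes ran the opposite way. DDX60L, a helicase related to DDX60, was at 10.67, 10.53 and 10.44 in HCT 116 siControl arrays, against 7.61, 7.28 and 7.36 in DLD1 siControl arrays. DDX60, which promotes signalling by RIGI, was at 7.33, 7.27 and 7.29 in HCT 116 siControl arrays, against 5.42, 5.29 and 5.52 in DLD1 siControl arrays. The HCT 116 arrays lay above all DLD1 arrays for both neighbours (DDX60L difference 3.13, SE 0.23, limma adjusted p = 5.2e-08; DDX60 difference 1.89, SE 0.20, adjusted p = 3.54e-06).

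UBE2L6 was also higher in HCT 116 siControl arrays, at 10.09 ± 0.31, against 8.23 ± 0.12 in DLD1 siControl arrays (SD, n = 3 each; difference 1.86, limma adjusted p = 3.25e-06). BST2, IFI35, which binds other interferon-induced proteins, and IFIT5 were higher by 1.0, 0.96 and 0.67 (limma adjusted p of 0.00175, 0.00804 and 0.0133). BST2 lay below the array median in every array, at 3.07, 3.82 and 3.86 in HCT 116 siControl arrays and at 2.72, 2.57 and 2.46 in DLD1 siControl arrays. IFI35 was at 7.17, 7.30 and 6.80 in HCT 116 siControl arrays and at 6.16, 5.81 and 6.43 in DLD1 siControl arrays. IFIT5 was at 9.36, 9.46 and 9.37 in HCT 116 siControl arrays and at 8.82, 8.74 and 8.61 in DLD1 siControl arrays, with no overlap, and its call was lost without DLD1 siControl replicate 3 (adjusted p = 0.0535).

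**Figure D4:**
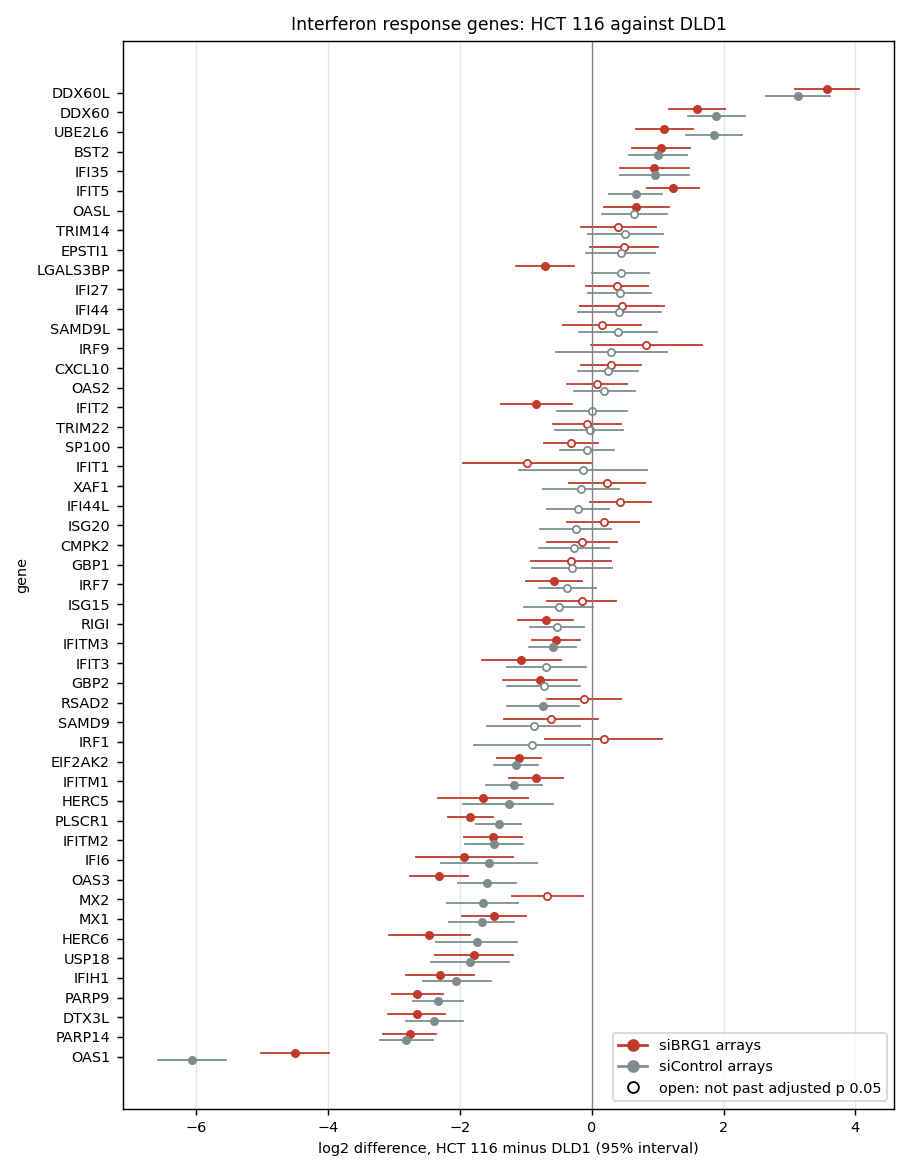
Difference between the lines for each of the 50 genes, HCT 116 minus DLD1 on the log2 scale with 95% intervals from limma; red points are siBRG1 arrays, grey points siControl arrays, and open points did not pass adjusted p under 0.05. Most filled points lie left of 0, lower in HCT 116, in both colours: 22 of 29 filled points for siBRG1 and 18 of 24 for siControl.

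Other genes of the interferon pathway were read from a list of ligands, receptors and kinases, sensors and adaptors, and negative regulators, of which 38 were measured. TREX1 and IFNE were not analysed here. Of the 38, 0 rose and 1 fell in HCT 116, and 0 passed in DLD1 or in the difference between the lines by limma. The shares of all genes were 2.82% higher and 4.13% lower in HCT 116, 0.0678% and 0.13% in DLD1, and 0.334% in the difference. An unadjusted p under 0.05 was reached by 5 of the 38 in HCT 116, 7 in DLD1 and 4 in the difference, beside 20.4%, 10.5% and 8.99% of all genes. All 9 measured interferon genes (IFNB1, IFNA1, IFNA2, IFNK, IFNW1, IFNG, IFNL1, IFNL2 and IFNL3) lay below the array median in all 12 arrays. The median change of the 38 was 0.08 in both lines.

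The gene that fell was TLR3, the endosomal receptor for double-stranded RNA, at 5.76, 6.04 and 6.07 in HCT 116 siBRG1 arrays, against 7.49, 7.54 and 7.40 in HCT 116 siControl arrays. In DLD1 it was at 10.38, 10.53 and 9.97 in siBRG1 arrays, against 10.77, 10.92 and 10.58 in siControl arrays. The groups did not overlap in either line. TLR3 fell by 1.52 in HCT 116 (SE 0.19, limma adjusted p = 0.000336), while the DLD1 change of −0.46 did not pass (SE 0.19, adjusted p = 0.382). The siBRG1 level in HCT 116 was below the array median, so the fall may be understated.

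On the average of both lines, 2 of the 38 rose and 1 fell, beside 4.01% and 4.68% of all genes. TLR3 fell by 0.99 (SE 0.13, limma adjusted p = 0.000674). Those that rose, named after their values were seen, were IFNGR1, the ligand-binding chain of the receptor for interferon gamma (0.53, SE 0.14, adjusted p = 0.0305), and JAK2, a kinase bound to that receptor (0.65, SE 0.17, adjusted p = 0.0271). IFNGR1 was at 9.82, 10.40 and 10.06 in HCT 116 siBRG1 arrays, against 9.54, 9.71 and 9.60 in HCT 116 siControl arrays. It was at 11.82, 12.02 and 12.42 in DLD1 siBRG1 arrays, against 11.59, 11.37 and 11.54 in DLD1 siControl arrays. The groups of IFNGR1 did not overlap in either line. Those of JAK2 overlapped in HCT 116 and not in DLD1, where all siControl arrays lay below the array median.

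Between the lines, 4 of the 38 were higher and 8 lower in HCT 116 siControl arrays, beside 13.6% and 14% of all genes, TLR3 among the lower (difference −3.28, SE 0.19, limma adjusted p = 2.75e-09). In bulk RNA, fewer cells of a kind and less RNA in each cell cannot be told apart. Of 11 measured leukocyte markers, 0 to 2 lay above the array median in an array, and PTPRC and CD3E lay below it in all 12. CD68, a lysosomal protein rich in macrophages and found in other cells, rose in HCT 116 (change 1.29, limma adjusted p = 0.0036). The summed log2 levels of the 11 were 52.7 to 53.8 in HCT 116 siBRG1 arrays and 51.2 to 53.6 in HCT 116 siControl arrays. They were 50.3 to 50.9 in DLD1 siBRG1 arrays and 51.2 to 52 in DLD1 siControl arrays, and their part in the results was not tested.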

How the data were processed

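The values the authors deposited are log2 expression levels. The submitters' processing notes name RMA and Affymetrix Power Tools, with no version or build; RMA removes background, evens out intensities between arrays and summarises probes. Between 94 and 112 values per array exceed 16, the limit of a 16-bit scanner on this scale, so a further step is unnamed. Of 21448 features, 17709 had 1 gene symbol, 3739 none, and 17687 genes were tested.

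The 4 group means of the 12 arrays were fitted with limma 3.58.1 in R 4.3.3 (lmFit, eBayes; 8 residual and 6.66 prior degrees of freedom), with Benjamini-Hochberg adjustment over all genes and a threshold of 0.05. The script was tested on simulated data. The members and lists were chosen with earlier results of these data known. Array values are given by rule for members called after BRG1 siRNA, otherwise the 5 largest changes of a line, the 6 largest differences each way between control lines, and pathway genes called in a line; those of PARP9, USP18 in siBRG1 arrays and IFNGR1 are outside the rule, chosen after their values were seen.

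Titles number the arrays 1 to 3. Deviations of same-numbered DLD1 arrays correlated at 0.49, 0.46 and 0.29 across genes, so the numbers may pair them. This comes from the data, not the labels. The main fit and its p-values used no pairing, which entered only through the replicate block among the alternatives. Alternatives were the replicate block (within a line, and over both lines as an addition made after seeing the data), each line alone, other normalization, filters, feature means, priors, array weights, a stricter threshold and each array left out. Scan dates were not used here. The number of arrays limits the precision.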

Additional observations from a re-analysis of the deposited data

How the results depend on the processing

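SMARCA4 kept its change when arrays were centred (−3.15 in HCT 116, −3.86 in DLD1). Of 593 values of named genes under the alternatives, 538 kept their direction and side of the threshold, 48 lost it, 7 gained it and 0 reversed. LGALS3BP and OAS3 in HCT 116 passed in all 21 fits at a threshold of 0.05 (limma adjusted p up to 0.00804 and 0.0394). OAS1 in DLD1 ranged from 0.0142 to 0.294 over 20 fits, UBE2L6 in HCT 116 from 0.00474 to 0.104 and PLSCR1 from 0.0163 to 0.14 over 21. With the replicate block 8 members passed in HCT 116 and 10 on average. Whether same-numbered HCT 116 arrays are pairs is not known (correlations 0.30, 0.15 and 0.03). The block left the number of members called in DLD1 at 1 and in the difference at 0, and moved no count of other pathway genes. Over all genes it called 2123 in HCT 116 (1230 without it), 98 in DLD1 (35), 102 in the difference (59) and 2476 on average (1536); array weights called 2035, 128, 162 and 2306. A replicate block whose number both lines share, chosen after seeing the data, gave 27 members between the siBRG1 arrays of the lines (29 without it) and 26 between the siControl arrays (24). With each line alone, 2 passed in HCT 116 and 0 in DLD1, beside 912 and 4 of all genes. Among genes above the median level, which leaves 24 members and not OAS1, 0 passed in DLD1, 7 on average and 19 between the siBRG1 arrays of the lines. Over all genes above that level, 49, 1823 and 4315 passed. With array weights 8 passed in HCT 116, 2 in the difference (OAS1 and LGALS3BP) and 9 on average. At an adjusted p under 0.01, 2 passed in HCT 116, 0 in DLD1 and 2 on average, beside 418, 11 and 494 of all genes. Leaving out each array gave 2 to 5 members in HCT 116, lowest without siBRG1 replicate 3, siControl replicate 2 or siControl replicate 3. It gave 0 to 1 in DLD1, 0 to 1 in the difference (OAS1 without DLD1 siBRG1 replicate 1, LGALS3BP without HCT 116 siBRG1 replicate 1), 2 to 7 on average (2 without HCT 116 siBRG1 replicate 2, HCT 116 siControl replicate 2, DLD1 siBRG1 replicate 2 or DLD1 siControl replicate 3, and 7 without HCT 116 siControl replicate 1), 21 to 26 between siControl arrays and 24 to 30 between siBRG1 arrays. The counts over all genes shifted too. In HCT 116, 618 genes passed without HCT 116 siControl replicate 2 and 664 without HCT 116 siControl replicate 3, against 1230 with every array. On average, 935 passed without HCT 116 siControl replicate 2 and 1555 without HCT 116 siControl replicate 1, against 1536. The cause of these shifts was not tested. Genes below the array median cannot be told from background, which limits what could be seen of 20 members.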
